A study of Mus musculus with 4 samples.

Results

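Urea cycle and amino acid breakdown genes were followed in the liver of male mice on 4 Affymetrix arrays. Gene membership was set by name: Cps1, Otc, Ass1, Asl and Arg1 of the urea cycle, and Gls2, Hal, Amdhd1, Sds and Tat of amino acid breakdown. All probe sets whose only gene symbol in the platform annotation was one of these 10 names were taken, which gave 11 of the 45037 probe sets and 8 of the 10 genes. No probe set of that kind carried the names Gls2 (liver glutaminase) or Sds (serine dehydratase), so these 2 were not analysed here. All 8 measured genes passed the filter on signal, which left 12493 of 18193 named genes, and all 11 probe sets lay above the median of the array on each of the 4 arrays.

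The 4 groups were LASS2-/- mice on high-fat diet (LASS2-/- HFD), wild-type mice on high-fat diet (WT HFD), LASS2-/- mice on chow (LASS2-/- chow) and wild-type mice on chow (WT chow), with 1 array each. Lass2 is an older name of Cers2, which encodes a ceramide synthase for very-long-chain ceramides. The high-fat diet held 60% and the chow 10% of calories from fat, both from 3 weeks of age, and the age at collection is not stated. The number of mice behind each array and the making of the LASS2 allele are not stated either. Cers2 itself read 12.32 log2 on LASS2-/- HFD, 12.25 on WT HFD, 12.32 on LASS2-/- chow and 12.46 on WT chow. Cers2 was 0.07 log2 higher with the LASS2-/- label on high-fat diet and differed by -0.15 on chow, and the mean of -0.04 ± 0.10 did not pass (limma adjusted p = 0.948). Whether its probe set lies in the altered part of the gene was not determined, and every genotype difference below is one between arrays by their labels. Of 8 hepatocyte markers listed, 6 had a single-symbol probe set, and all 6 passed the filter, among them albumin. Their summed linear signals were 219422, 228451, 262706 and 249288 in the same order of arrays.

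Liver cells dispose of amino acid nitrogen as urea. In mitochondria, carbamoyl phosphate synthetase (Cps1) fixes ammonia and ornithine transcarbamylase (Otc) makes citrulline from it; in the cytosol, argininosuccinate synthetase (Ass1) and lyase (Asl) make arginine, which arginase (Arg1) splits into urea and ornithine. Hal and Amdhd1 encode histidase and imidazolonepropionase, the enzymes of separate steps of histidine breakdown, and Tat encodes tyrosine aminotransferase, the first step of tyrosine breakdown and a classical target of glucocorticoids and glucagon. The cycle and histidine breakdown are most active in hepatocytes near the portal vein, while glutamine synthetase captures leftover ammonia around the central vein.

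Changes among the 8 genes are given as mean effects over arrays with a moderated standard error. On high-fat diet, transcripts of Cps1, Asl and Hal fell relative to chow (-0.41 ± 0.07, -0.37 ± 0.08 and -0.55 ± 0.10 log2). With the LASS2-/- label, Hal and Amdhd1 fell relative to wild type (-0.46 ± 0.10 and -0.45 ± 0.09 log2). Each of these genotype calls passed under only 3 of 9 alternative ways of processing. No gene of the 8 rose with either factor. Each single ratio rested on 1 array per group and has no replicate check, so no test was possible for it. The tests come from limma, fitted to all 12493 genes with diet and genotype as additive terms, in which the mean of 2 ratios is tested against their difference (1 residual degree of freedom per gene, supported by a variance from genes of like signal that weighed as 12.7 degrees of freedom). The threshold for passing was 0.05 after Benjamini-Hochberg adjustment across the whole table. What the p-values weigh is a mean effect against the difference between its 2 ratios, in that gene and in genes of like signal. Array noise and a true dependence of 1 factor on the other are mixed in that difference. The spread between animals is not measured.

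**Figure D1:**
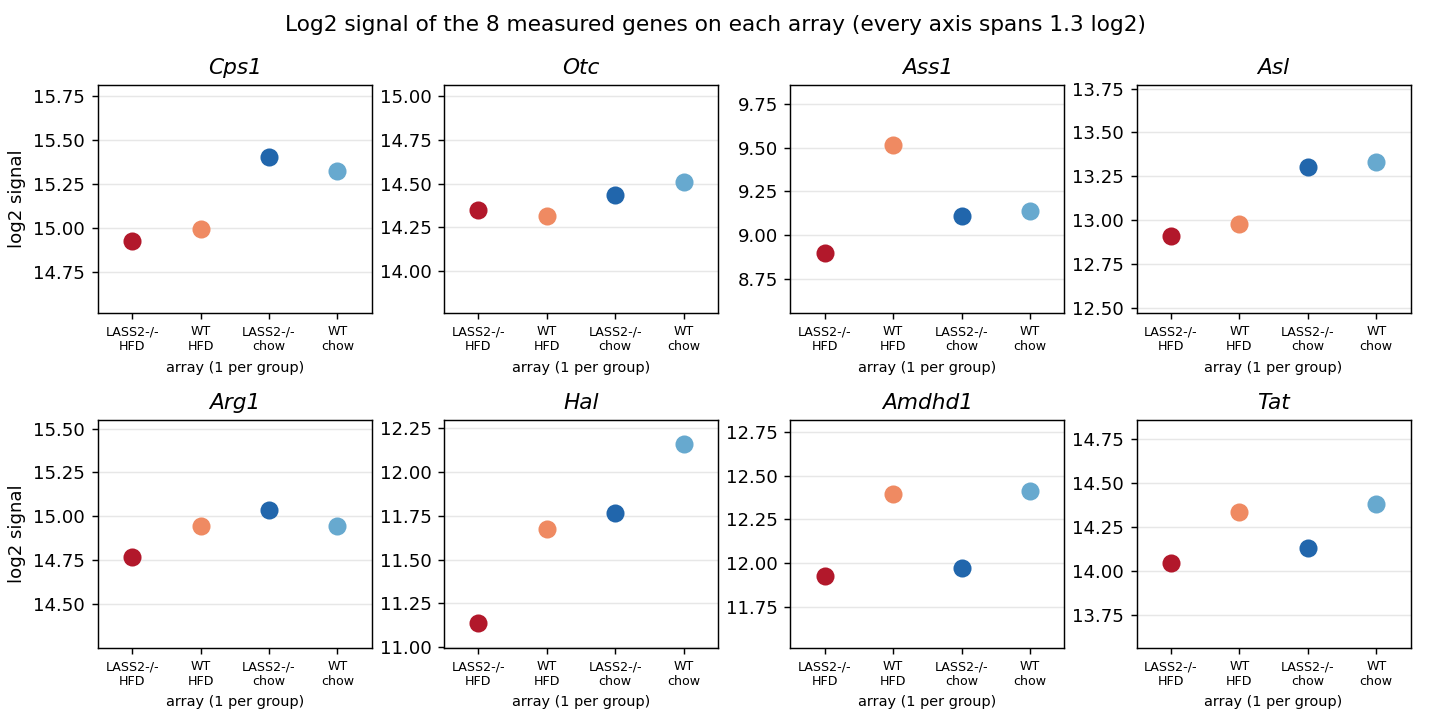
Log2 signal (vertical axes, each spanning 1.3 log2) of the 8 measured genes on the 4 arrays (horizontal axes, 1 point per array). Both high-fat arrays lie below both chow arrays for Cps1, Asl, Otc and Hal, and both LASS2-/- arrays lie below both wild-type arrays for Amdhd1 and Tat. The share of all genes with such an order was not counted, so these orders are description only.

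Among the mitochondrial enzymes, Cps1 read 14.92 log2 on the array labelled LASS2-/- HFD, 14.99 on WT HFD, 15.41 on LASS2-/- chow and 15.33 on WT chow. Both high-fat arrays were low and both chow arrays high, an order whose share among all genes was not counted. The high-fat signal was 1.40-fold lower in LASS2-/- and 1.26-fold lower in wild type, and the mean diet effect passed in limma (-0.41 ± 0.07, adjusted p = 0.00215). The genotypes were interleaved, with a mean genotype effect of 0.01 ± 0.07 (limma adjusted p = 0.987) that turned to -0.05 after scaling to equal medians and to -0.01 after quantile normalization. The highest signal of any probe set was 15.76 to 15.89 across the arrays, so Cps1 was read near the top of the scale, where any loss of proportionality was not tested.

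Otc was read by 3 probe sets. The brightest had 14.35, 14.31, 14.44 and 14.51 log2 on the arrays labelled LASS2-/- HFD, WT HFD, LASS2-/- chow and WT chow. The 2 high-fat arrays were again the lower ones, with diet ratios of -0.09 log2 in LASS2-/- and -0.20 in wild type, but the mean diet effect of -0.14 ± 0.08 did not pass (limma adjusted p = 0.288). The second probe set had 14.08, 14.02, 14.15 and 14.22, and the dimmest of the 3 had 8.25, 8.06, 8.13 and 8.12 with no split by diet. Mean genotype effects were -0.02, -0.0014 and 0.10 log2 over the 3 probe sets, and that of the brightest was 0.0046 after quantile normalization. The brightest probe set of Otc spanned 0.20 log2 over the 4 arrays.

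In the cytosolic steps of the cycle, Asl had 12.91 log2 on the array labelled LASS2-/- HFD, 12.98 on WT HFD, 13.30 on LASS2-/- chow and 13.33 on WT chow. Both high-fat arrays lay below both chow arrays, and the ratio was close in the genotypes, 1.31-fold lower on high-fat diet in LASS2-/- and 1.28-fold lower in wild type. The mean diet effect passed in limma at -0.37 ± 0.08 (adjusted p = 0.0101). The mean genotype effect was -0.05 ± 0.08 (limma adjusted p = 0.921).

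Ass1, the enzyme just before Asl, gave discordant readings. The single-symbol probe set had 8.90 log2 on LASS2-/- HFD, 9.51 on WT HFD, 9.11 on LASS2-/- chow and 9.14 on WT chow. Here the WT HFD array stood apart: the diet ratio was -0.21 log2 in LASS2-/- and 0.37 in wild type, and the genotype ratio was -0.61 on high-fat diet and -0.03 on chow. Neither mean effect passed in limma, at 0.08 ± 0.17 for diet (adjusted p = 0.829) and -0.32 ± 0.17 for genotype (adjusted p = 0.587). A brighter probe set, which the annotation lists for both Ass1 and the pseudogene Gm5424 and which therefore lies outside the selection, had 13.18, 13.06, 13.35 and 13.48 log2 in the same order. On it both high-fat arrays were low, as for Cps1 and Asl, and when it took the place of the single-symbol probe set, an alternative chosen after seeing the data, the mean diet effect was -0.29 ± 0.09 (limma adjusted p = 0.0489) and the mean genotype effect -0.00065. Signal from Ass1 and from the pseudogene cannot be told apart on that probe set.

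Arg1 closed the cycle with 14.77 log2 on LASS2-/- HFD, 14.95 on WT HFD, 15.04 on LASS2-/- chow and 14.94 on WT chow. The wild-type arrays were level, with a diet ratio of 0.00 log2, while the LASS2-/- arrays differed by -0.27. The mean diet effect was -0.13 ± 0.08 (limma adjusted p = 0.357) and the mean genotype effect -0.04 ± 0.08 (limma adjusted p = 0.93), and the difference between the genotypes in their diet ratio could not be tested.

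Hal was the member with the widest range. It had 11.14 log2 on the array labelled LASS2-/- HFD, 11.67 on WT HFD, 11.77 on LASS2-/- chow and 12.16 on WT chow, a range of 1.02. The array with both the high-fat diet and the LASS2-/- label was lowest, the WT chow array was highest, and the other two lay between. High-fat signal was 1.54-fold lower in LASS2-/- and 1.40-fold lower in wild type, and the mean diet effect passed in limma (-0.55 ± 0.10, adjusted p = 0.0024). LASS2-/- signal was 1.45-fold lower than wild type on high-fat diet and 1.31-fold lower on chow, and the mean genotype effect passed narrowly (-0.46 ± 0.10, limma adjusted p = 0.0491).

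Amdhd1, which acts after urocanase in the same pathway, separated the arrays by genotype label. Its brighter probe set had 11.93 log2 on LASS2-/- HFD, 12.39 on WT HFD, 11.97 on LASS2-/- chow and 12.41 on WT chow. Both LASS2-/- arrays were low and both wild-type arrays high, 1.38-fold apart on high-fat diet and 1.35-fold on chow. The mean genotype effect passed in limma (-0.45 ± 0.09, adjusted p = 0.037), while the mean diet effect was -0.03 ± 0.09 (limma adjusted p = 0.876) and turned to 0.00044 after scaling to equal medians. The dimmer probe set had 9.27, 9.76, 9.64 and 9.82 log2 in that order, with genotype ratios of -0.48 on high-fat diet and -0.18 on chow, and its mean of -0.33 did not pass when every probe set was fitted (limma adjusted p = 0.528).

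Hal and Amdhd1, the 2 genes that passed for genotype in the main fit, are neighbours on mouse chromosome 10 and lie on opposite strands. RefSeq on GRCm38.p6 has 0 annotated genes between them. Their 3′ ends face each other across a gap of 6.576 kilobases, so their starts lie at the outer ends of the pair. The 250 bases before the start that the RefSeq promoter table uses for each are shown 5′ to 3′ because both genes passed for genotype. For Amdhd1 that start lies inside the gene's annotated extent, so that the last 78 bases of its window overlap the annotated gene, while 0 bases of the Hal window do. They are RefSeq sequences of GRCm38.p6, for Hal at chr10:93488518-93488767 on the plus strand and for Amdhd1 at chr10:93540034-93540283 on the minus strand. Capitals mark matches, on either strand, to TATAA (the TATA box core), CCAAT (the CCAAT box), TGACG (part of the cAMP response element), TGTTCT (part of the glucocorticoid receptor site) and TTNNGNAA (a C/EBP-like pattern).
Hal: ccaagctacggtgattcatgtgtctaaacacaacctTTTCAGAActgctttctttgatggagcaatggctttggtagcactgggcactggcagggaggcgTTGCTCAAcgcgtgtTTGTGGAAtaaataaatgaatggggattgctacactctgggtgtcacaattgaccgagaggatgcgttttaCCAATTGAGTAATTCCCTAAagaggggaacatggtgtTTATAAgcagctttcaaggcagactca
Amdhd1: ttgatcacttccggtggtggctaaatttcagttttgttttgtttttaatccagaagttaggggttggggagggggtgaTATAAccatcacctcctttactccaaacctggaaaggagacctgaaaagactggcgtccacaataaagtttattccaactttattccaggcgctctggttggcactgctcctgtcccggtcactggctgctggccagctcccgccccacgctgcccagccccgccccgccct

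The Hal window held TATAA on both strands in overlapping positions 27 to 22 bases before the start, CCAAT from 64 to 60 bases before it, and 5 matches to TTNNGNAA, of which the one from 60 to 53 bases shares a base with CCAAT. The Amdhd1 window held 1 TATAA, from 172 to 168 bases before the table's start, and its last bases were rich in G and C. TGACG and TGTTCT are not among the letters of either window. Of 32851 RefSeq windows of this length, 22.8% held TATAA, 33.8% CCAAT, 17.8% TGACG, 16.1% TGTTCT and 36.8% TTNNGNAA, so each match is common. Promoter sequences were at hand for 5 of the 10 genes.

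The genotype calls of Hal and Amdhd1 depended on the processing. Each passed in limma under 3 of 9 alternatives and missed under the other 6, with adjusted p from 0.0249 to 0.742 for Hal and from 0.0193 to 0.742 for Amdhd1, while the effects ranged from -0.52 to -0.46 and from -0.50 to -0.39 log2. For Cps1, Asl and Hal, only quantile normalization and scaling to equal medians changed the diet effects themselves. The other alternatives kept their values and changed the error estimate or the genes fitted beside them. Their diet calls passed under 8 of 9 alternatives each. They missed in the fit without a variance trend, at limma adjusted p of 0.36, 0.363 and 0.335. In that limma fit 0 of the 12493 genes passed for either factor, with 1783 genes for diet and 820 for genotype at an unadjusted p below 0.05.

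Tat showed the same order by genotype label as Amdhd1 at a smaller size. It had 14.04 log2 on LASS2-/- HFD, 14.33 on WT HFD, 14.13 on LASS2-/- chow and 14.38 on WT chow, so both LASS2-/- arrays lay below both wild-type arrays. Genotype ratios were -0.29 on high-fat diet and -0.25 on chow, and their mean of -0.27 ± 0.08 did not pass over all genes (limma adjusted p = 0.153, unadjusted p = 0.00325). The mean diet effect was -0.07 ± 0.08 (limma adjusted p = 0.665), and it turned to 0.04 with quantile normalization.

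**Figure D2:**
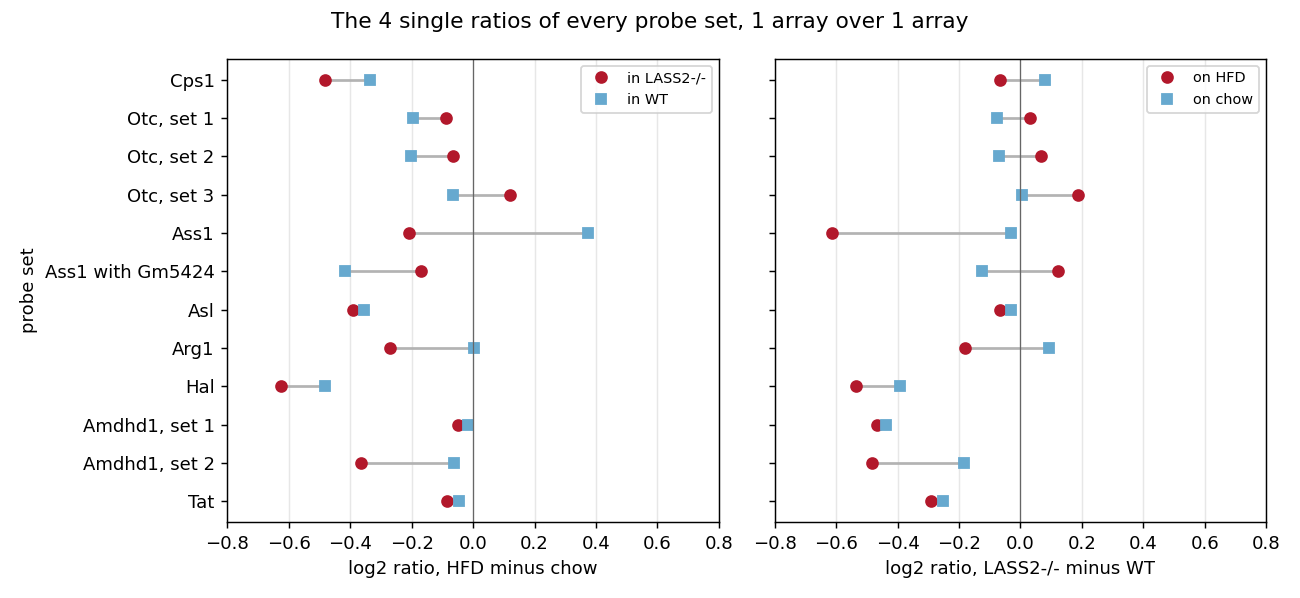
The 4 log2 ratios of each of the 11 selected probe sets and of the probe set listed for Ass1 with Gm5424 (rows; sets of a gene are numbered from the brightest). Left, high-fat diet minus chow in LASS2-/- (circles) and in wild type (squares); right, LASS2-/- minus wild type on high-fat diet (circles) and on chow (squares). The diet ratios of Cps1, Asl and Hal and the genotype ratios of Hal, Amdhd1 and Tat lie below 0 in both pairs of arrays. So do the diet ratios of Amdhd1, Tat, the brighter Otc sets and the set listed for Ass1 with Gm5424. The genotype ratios of Asl and of the single-symbol Ass1 set do as well. The single-symbol Ass1 probe set has its marks farthest apart.

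Counted together, 0 members rose and 3 of 8 fell with diet, where 6.26% of all genes rose and 5.04% fell in limma (11.3% in either direction). For genotype 0 members rose and 2 of 8 fell, where 0.56% of all genes rose and 0.352% fell (0.913% in either direction, 70 and 44 genes). Scaling to equal medians gave 11 rises and 11 falls over all genes. With genes split into 4 groups by signal, the median residual spread was 0.39 log2 in the dimmest group and 0.06 in the brightest. Small effects can thus pass more readily in bright genes. The share of calls among genes as bright as the members was not counted, so these counts do not show an excess among them. No member was 2-fold apart in any single ratio. At least 2-fold higher and lower were 3.11% and 1.89% of all genes for diet in LASS2-/-, 2.13% and 1.24% for diet in wild type, 1.47% and 0.488% for genotype on high-fat diet, and 1.16% and 0.424% for genotype on chow. At 1.5-fold, Hal was lower for diet in LASS2-/- and Ass1, on its single-symbol probe set, for genotype on high-fat diet. No other single ratio of a member reached that size. The brighter probe set listed for Ass1 and Gm5424 had a log2 ratio of 0.12 for genotype on high-fat diet. The shares of all genes at least 1.5-fold higher and lower were 10.1% and 7.2% for diet in LASS2-/-, 7.71% and 5.11% for diet in wild type, 5.73% and 3.32% for genotype on high-fat diet, and 5.68% and 3.35% for genotype on chow. The median log2 ratio of the 8 genes was -0.24 for diet in LASS2-/- and -0.12 for diet in wild type, where the medians over all genes were both 0.02. It was -0.23 for genotype on high-fat diet and -0.05 for genotype on chow, where the medians over all genes were both 0.01. Scaling to equal medians moved the chow genotype median of all genes to -0.10.

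By role, the 5 urea cycle genes had a median diet effect of -0.14 and a median genotype effect of -0.04 log2, and 2 of the 5 fell with diet while 0 passed for genotype. The 3 breakdown genes had a median diet effect of -0.07 and a median genotype effect of -0.45, and 1 of the 3 (Hal) fell with diet while 2 (Hal and Amdhd1) fell with genotype. All 3 had lower signals on the LASS2-/- array of both diets. The difference between the roles was not tested.

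**Figure D3:**
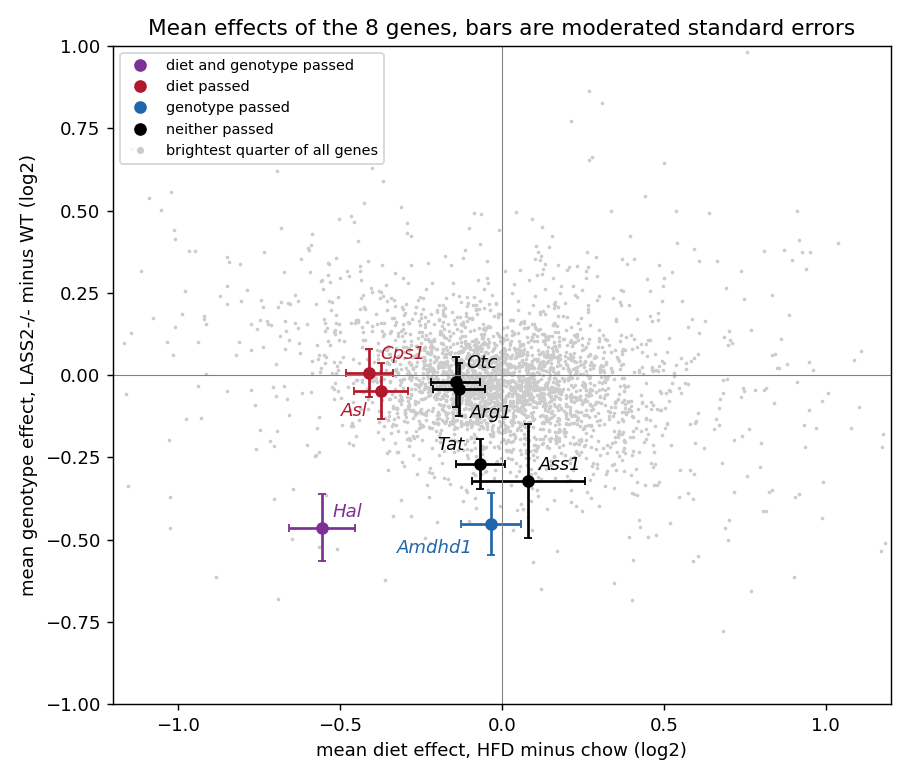
Mean diet effect (horizontal axis, HFD minus chow, log2) against mean genotype effect (vertical axis, LASS2-/- minus wild type, log2) of the 8 genes with moderated standard errors, over the brighter genes of the whole table in grey. Cps1 and Asl lie at -0.41 and -0.37 on the diet axis and near 0 on the genotype axis, Amdhd1 at -0.45 on the genotype axis and near 0 on the diet axis, and Hal is low on both.

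Markers of cell types moved with diet and with genotype beside these genes. Among the 6 hepatocyte markers that passed the filter, 2 fell with diet in limma (Fgb, a fibrinogen chain, and Ahsg, fetuin-A) and 0 rose, and their median diet ratio was -0.25 log2 in LASS2-/- and -0.11 in wild type. Summed signals of 8 stellate cell and fibroblast markers were 17145 on LASS2-/- HFD and 17700 on WT HFD, against 12573 on LASS2-/- chow and 12307 on WT chow, with 3 of the 8 higher and 1 lower in limma. Of 9 macrophage markers, 1 (Lyz2) rose with diet, and 2 (Marco and Lyz2) rose and 0 fell with genotype, with summed signals of 26949 on LASS2-/- HFD and 18411 on WT HFD, and of 23212 on LASS2-/- chow and 18750 on WT chow. No marker of these lists was at a log2 signal of 0 on any array. Summed signals of the 6 lymphocyte and plasma cell markers that passed the filter were 2475 on LASS2-/- HFD and 6601 on WT HFD, against 2778 on LASS2-/- chow and 2689 on WT chow. The WT HFD array was thus the high one in this sum. Of 7 endothelial markers 1 rose with diet, and of these 6 lymphocyte and plasma cell, the filtered 3 cholangiocyte and 1 erythroid markers 0 passed for either factor. The part of these cell types in the results was not tested, and in whole liver RNA fewer hepatocytes and less RNA per hepatocyte cannot be told apart.

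The other measured steps of histidine breakdown had no calls. Uroc1 (urocanase) and Ftcd (the last enzyme, which passes the formimino group to folate) were both measured, and 0 of the 2 passed for either factor. Ftcd had 13.23 log2 on LASS2-/- HFD, 13.39 on WT HFD, 13.39 on LASS2-/- chow and 13.43 on WT chow, with a mean genotype effect of -0.10 ± 0.08 (limma adjusted p = 0.78).

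Around the urea cycle, 14 partners that supply or remove nitrogen were measured, of which 3 rose and 2 fell with diet and 0 passed for genotype, with a median diet effect of 0.14. Got1, the cytosolic aspartate aminotransferase, had 12.67 log2 on LASS2-/- HFD and 12.01 on WT HFD, against 13.46 on LASS2-/- chow and 13.24 on WT chow, and fell with diet by 1.01 ± 0.10 (limma adjusted p = 2.04e-05). Gpt2, the mitochondrial alanine aminotransferase, rose by 0.49 ± 0.08 (limma adjusted p = 0.000824), and Glul, glutamine synthetase, by 0.53 ± 0.09 (limma adjusted p = 0.00102). Glul had 14.42 on LASS2-/- HFD and 14.27 on WT HFD, against 13.74 on LASS2-/- chow and 13.89 on WT chow. On high-fat diet the ammonia-fixing Cps1 was thus lower and the ammonia-capturing Glul higher on both arrays. Car5a, the mitochondrial carbonic anhydrase that feeds bicarbonate to Cps1, rose with diet by 0.43 ± 0.11 (limma adjusted p = 0.0223). Its genotype ratios were -0.48 on high-fat diet and -0.44 on chow, and the mean genotype effect of -0.46 ± 0.11 did not pass (limma adjusted p = 0.08).

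Over all 13 pathway lists, which share some genes, 130 of 139 genes beside the members were measured. With diet 14 rose and 19 fell, and with genotype 2 rose and 4 fell, to be read against the shares of all genes above. Among the breakdown lists beside histidine, the median diet effect reached 0.24 for proline, ornithine and hydroxyproline and the median genotype effect -0.21 for lysine, as the plot of effects by list shows.

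**Figure D4:**
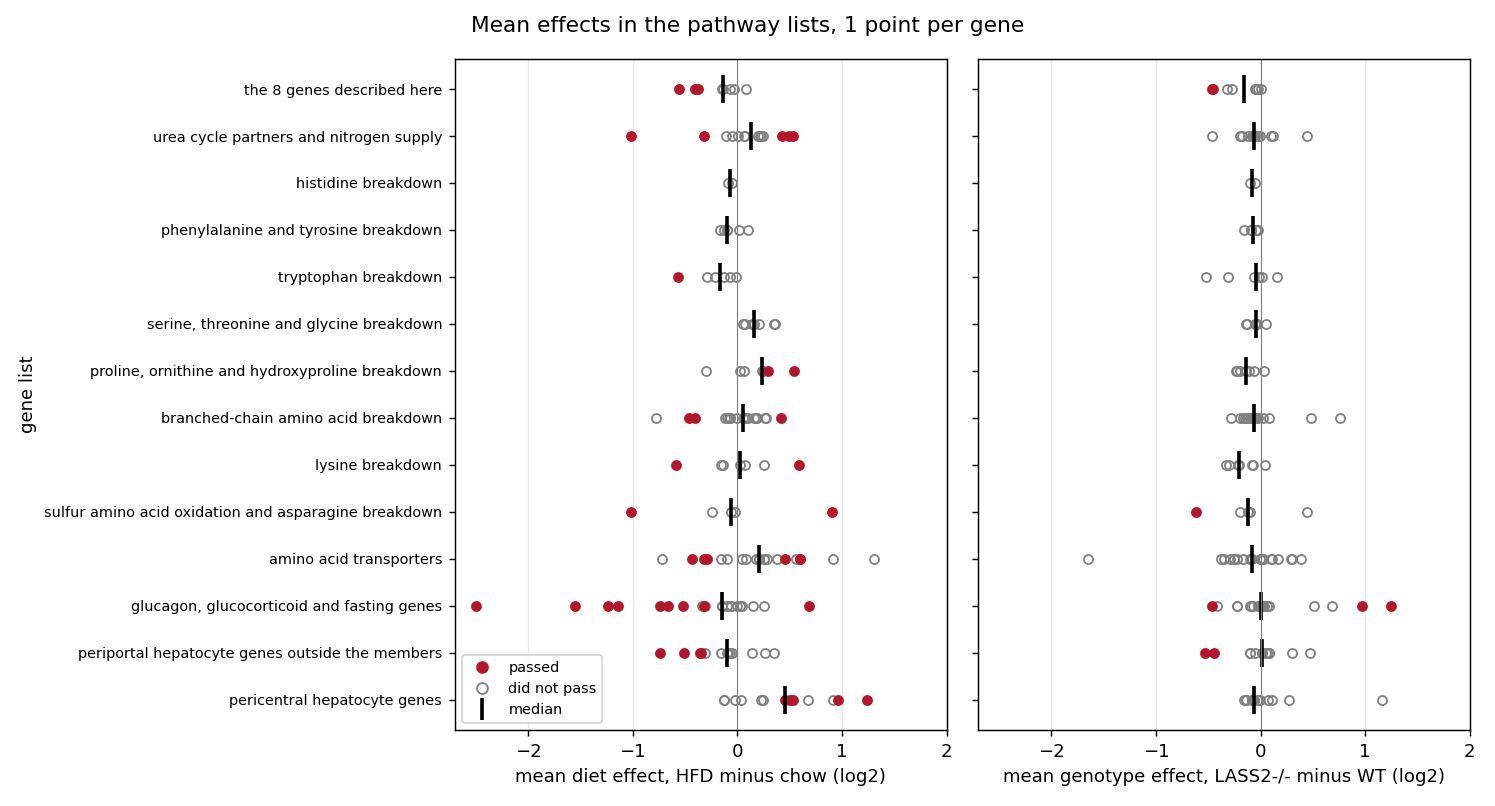
Mean diet effect (left, HFD minus chow, log2) and mean genotype effect (right, LASS2-/- minus wild type, log2) of the 8 genes and of the genes of 13 pathway lists without them, 1 point per gene, filled where the gene passed in limma; bars are medians. Pericentral genes have the highest median diet effect of these lists, 0.45, against -0.10 for the other periportal genes.

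Tyrosine and phenylalanine enzymes beside Tat had 0 of 6 passing for either factor, with medians of -0.10 for diet and -0.07 for genotype; the smallest p values were those of Fah for diet (-0.16 ± 0.08, limma adjusted p = 0.208) and of Gstz1 for genotype (-0.16 ± 0.08, limma adjusted p = 0.546). In tryptophan breakdown 1 of 6 passed: Afmid, kynurenine formamidase, fell with diet by 0.57 ± 0.12 (limma adjusted p = 0.0072), and its genotype effect of -0.52 ± 0.12 did not pass (limma adjusted p = 0.0678). Of 7 enzymes of serine, threonine and glycine 0 passed, with Srr, serine racemase, at 0.36 ± 0.11 for diet (limma adjusted p = 0.0511). Agxt2 and Grhpr, of glyoxylate and hydroxyproline metabolism, rose with diet by 0.54 ± 0.09 (limma adjusted p = 0.00152) and 0.29 ± 0.09 (limma adjusted p = 0.0458), 2 of the 7 genes of their list.

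Branched-chain amino acid genes had 1 rise and 2 falls with diet among 19. Ppm1k, the phosphatase that activates branched-chain ketoacid dehydrogenase, rose by 0.41 ± 0.10 (limma adjusted p = 0.014). Dbt, a subunit of that complex, fell by 0.46 ± 0.10 (limma adjusted p = 0.00698) and Acadsb fell by 0.40 ± 0.11 (limma adjusted p = 0.0266). Of 7 lysine genes, Aass, which opens the main pathway, fell with diet by 0.59 ± 0.08 (limma adjusted p = 0.000239) and Hykk, hydroxylysine kinase, rose by 0.59 ± 0.10 (limma adjusted p = 0.00119). Csad, which makes the taurine precursor hypotaurine, was 1 of 5 genes of sulfur amino acid and asparagine breakdown and moved both ways: it rose with diet by 0.90 ± 0.09 (limma adjusted p = 1.55e-05) and fell with the LASS2-/- label by 0.61 ± 0.09 (limma adjusted p = 0.00436). In that list Got1, named above, was the other diet call. In the serine, proline, branched-chain, lysine and transporter lists, none of which had a genotype call, the genes with the smallest p had genotype effects of -0.14 ± 0.11 (Srr), -0.22 ± 0.09 (Grhpr), -0.29 ± 0.10 (Ppm1k), -0.30 ± 0.10 (Hykk) and -0.25 ± 0.08 log2 (Slc38a4, an amino acid transporter), with limma adjusted p from 0.239 to 0.753.

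Amino acid transporters had 2 rises and 3 falls with diet among 21, and 0 passed for genotype. Slc1a2, a glutamate transporter of pericentral hepatocytes, rose by 0.45 ± 0.11 (limma adjusted p = 0.0174). Slc7a2, a cationic amino acid transporter that carries arginine, fell by 0.32 ± 0.08 (limma adjusted p = 0.0245) and Slc38a3, a glutamine transporter, fell by 0.29 ± 0.08 (limma adjusted p = 0.0297).

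Zonation lists were set beside the members, most of which are periportal. Of 13 other periportal genes 0 rose and 4 fell with diet. G6pc, glucose-6-phosphatase, fell by 0.74 ± 0.16 (limma adjusted p = 0.00767), with uneven diet ratios of -1.25 log2 in LASS2-/- and -0.23 in wild type. Cyp2f2 fell by 0.36 ± 0.08 (limma adjusted p = 0.00827) and Etnppl, which breaks down phosphoethanolamine, fell by 0.51 ± 0.11 (limma adjusted p = 0.00894). Of 13 pericentral genes 5 rose and 0 fell, among them Glul, Lect2 by 0.50 ± 0.09 (limma adjusted p = 0.00147) and Tbx3, a Wnt-dependent repressor, by 0.96 ± 0.17 (limma adjusted p = 0.00215). The difference between the lists was not tested. With genotype, Etnppl fell by 0.53 ± 0.11 (limma adjusted p = 0.0442) and Hsd17b6 fell by 0.44 ± 0.09 (limma adjusted p = 0.0307), 2 of the 13 periportal genes, and 0 of the 13 pericentral genes passed, with Rhbg, an ammonium transporter, at 1.16 ± 0.26 (limma adjusted p = 0.0501).

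Regulators and hormone-responsive genes were followed because glucagon and glucocorticoids drive many urea cycle genes. Of the 21 measured of 22, 1 rose and 8 fell with diet. The rise was that of Tsc22d3, a glucocorticoid-induced gene, by 0.69 ± 0.09 (limma adjusted p = 0.000223), named after its values were seen. Other hormone-responsive genes of the list did not share this call. Dusp1 fell by 0.52 ± 0.14 (limma adjusted p = 0.0256), and Per1 (-0.33), Fkbp5 (0.15) and Sgk1 (0.25) did not pass for diet. Onecut1, a hepatocyte transcription factor, fell by 2.50 ± 0.17 (limma adjusted p = 5.67e-07), Crem, a cAMP-responsive factor, fell by 1.24 ± 0.13 (limma adjusted p = 2.04e-05) and Pdk4, a fasting-induced kinase, fell by 1.55 ± 0.17 (limma adjusted p = 3.49e-05). With the LASS2-/- label Pdk4 rose by 1.25 ± 0.17 (limma adjusted p = 0.00267) and Onecut1 by 0.97 ± 0.17 (limma adjusted p = 0.0163), while Tsc22d3 fell by 0.47 ± 0.09 (limma adjusted p = 0.0338). Mice had free access to food, per the labels, and the time of day at collection is not stated.

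Genes with the pattern most like that of Hal were ranked by the Euclidean distance between mean-centred log2 signals over the 4 arrays, among 10103 genes above the array median on all 4. Afmid was nearest, at a distance of 0.06, with 9.90 log2 on LASS2-/- HFD, 10.49 on WT HFD, 10.53 on LASS2-/- chow and 10.99 on WT chow. It was followed by Slc17a2 (0.11), Hsd3b2 (0.11), Ppargc1a (0.12) and 4930581F22Rik (0.12). The LASS2-/- HFD array was lowest and the WT chow array highest in each of these 5 genes, which follows from choosing them by closeness to Hal. The likeness was the rule of choice, and with 4 arrays it is a description only.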

How the data were processed

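Total RNA of liver was extracted with TRIZOL, cleaned up with DNase digestion and biotin-labelled by in vitro transcription from the 3' end, per the labels' protocols. Each probe set has 1 deposited log2 signal per array, made with MAS5 per the submitters' processing notes; its version, scaling target and detection calls are unstated. On the linear scale the arrays shared a trimmed mean of 496.0 to 496.2 with 2% cut from each tail, so no scaling was added. The number of arrays, 1 per group, limits the precision of every value.

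Genes were named from the platform annotation: 34945 probe sets had 1 symbol, 932 several and 9160 none here, updated by gene number to RefSeq on GRCm38.p6. A probe set was kept where it reached the array median (6.17 to 6.28 log2) on at least 1 array, and the brightest kept probe set on average stood for its gene. limma 3.58.1 in R 4.3.3 fitted diet and genotype with a variance trend. The fit was also run on simulated data in which noise depended on signal alone, so that run cannot test the trend in these arrays. Other steps ran in Python 3.11.15 with pandas 2.3.3, and figures in matplotlib 3.10.9. The members, the lists, the tests and the 9 alternatives for them were chosen with earlier results of these data known. Named were the members, per list up to 3 genes passing for each factor or else the 1 with the smallest p, and the 5 genes nearest to Hal. Dusp1, Per1, Fkbp5 and Sgk1 were named outside this rule, beside Tsc22d3. Where a name repeats over lists, it is described once.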

Additional observations from a re-analysis of the deposited data

Results flagged for a closer look

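G6pc, glucose-6-phosphatase, differed in opposite directions by genotype label on the 2 diets, with a log2 ratio of LASS2-/- over wild type of -0.43 on high-fat diet and 0.59 on chow. The difference was not tested, since 1 array per group leaves no error for it. No member had opposite ratios of at least 1.2-fold in this way.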

How the results depend on the processing

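With quantile normalization 0 members passed for genotype, and 14 genes rose and 9 fell over all genes; the median genotype ratio of the members on high-fat diet was -0.17, the Tat diet effect turned to 0.044, the Cps1 genotype effect to -0.010 and the Otc genotype effect to 0.0046. With arrays scaled to equal medians 0 members passed for genotype, 11 genes rose and 11 fell, and 358 genes fell with diet; the members' median was -0.16 for diet in LASS2-/- and -0.16 for genotype on chow, the Amdhd1 diet effect was 0.00044 and the Cps1 genotype effect -0.046. For genotype, 33 genes rose and 19 fell with no filter, 36 and 27 with the mean of all probe sets (Otc genotype effect 0.025), 24 fell with every probe set fitted, and 41 rose with robust moderation; 0 members passed in the first 3 of these. Without a trend limma called 0 members and 0 genes for either factor, with 1783 genes for diet and 820 for genotype at an unadjusted p below 0.05, and 1 and 2 members. At 1.5-fold, 1 member (Hal) was lower for diet in LASS2-/-, where 7.2% of all genes were. For genotype on high-fat diet 1 (Ass1, on its single-symbol probe set) was lower, where 3.32% of all genes were. The probe set listed for Ass1 and Gm5424 gave Ass1 a diet effect of -0.29, an alternative chosen after seeing the data. The cause of these changes was not tested. No other of the 9 alternatives turned a member's mean effect. No array could be left out with a test, since the fit then keeps no residual degree of freedom. With 1 array per group there were no replicates to pair. The bright members stand well above the array median, and what limits their values is 1 array per group.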
